A study of Mus musculus with 10 samples.

Results

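A set of 9 chloride genes was followed across pools of mouse vagal sensory neurons: 7 anoctamins (Ano1, Ano2, Ano3, Ano4, Ano6, Ano8 and Ano10) and 2 cation-chloride cotransporters (Slc12a2 and Slc12a5). They were chosen by symbol and family, with earlier results of these data known, and make up 9 of the 24421 genes in the count tables. RNA was sequenced from 10 pools of hand-picked neurons from the nodose (caudal) or jugular (rostral) end of the fused vagal ganglion, in 5 groups of 2 pools. In the Trpv1-tdTomato selection, 30 tdTomato-positive nodose cells, 30 tdTomato-positive jugular cells or 15 tdTomato-negative nodose cells made a pool. These cells came from 2 mice that carried Trpv1-Cre and the ROSA26 CAG-tdTomato reporter, so the red label marks cells in which the Trpv1 promoter is or has been active, and the negative cells have the same genotype. In the capsaicin selection, wild-type C57BL/6 neurons were picked by their calcium response: the nodose pools (14 and 15 cells) responded to α,β-methylene ATP, a P2X receptor agonist, and to capsaicin, the TRPV1 agonist, and the jugular pools (15 and 16 cells) responded to capsaicin only. The type of selection, strain, sequencing core and depth changed together and cannot be told apart. The sources do not say which pools share a mouse, so p-values measure the spread between pools only.

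The reversal potential of chloride decides whether opening a chloride channel excites or inhibits a neuron. NKCC1, the product of Slc12a2, carries chloride into the cell with sodium and potassium, and primary sensory neurons are known for the high internal chloride that it maintains. KCC2, the product of Slc12a5, carries chloride out and is known from mature central neurons. Anoctamins are membrane proteins of which ANO1 and ANO2 are chloride channels opened by intracellular calcium, ANO6 is a calcium-dependent phospholipid scramblase with ion channel activity, and several others are scramblases or proteins of internal membranes.

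The total was 148452506 to 167704327 counts per pool in the Trpv1-tdTomato selection and 17666710 to 30810863 in the capsaicin selection. Levels are given as CPM, the counts per 1000000 counts in the pool's total, and 3 counts, taken as the limit of what can be told from 0, corresponded to 0.0179 to 0.0202 CPM and to 0.0974 to 0.17 CPM in the respective selections. The 5 neuronal markers were present in every pool (6547 to 15980 CPM summed). The nodose marker P2rx2 was at 101 to 448 CPM in the 6 nodose pools and under 1 CPM in the 4 jugular pools, and jugular markers Prdm12 and Tac1 were at 25.6 to 1241 CPM in the jugular and under 1 CPM in the nodose pools. The 8 glial markers summed to 3782 to 5518 CPM where cells were picked by tdTomato. They summed to 579 to 771 CPM where cells were picked by capsaicin. The glial marker Sox10 was at 0 in all 4 capsaicin-selected pools and at most at 0.234 CPM in the tdTomato-positive pools. In the tdTomato-negative pools Sox10 was at 16.6 and 3.62 CPM. Among the 3 immune markers, Ptprc and Aif1 were at 0 in all 10 pools, and Cd68 reached 81 CPM in 1 pool. Among the 4 fibroblast and vessel markers, Cldn5 was at 0 in all pools, and the sum reached 275 CPM in 1 capsaicin-selected jugular pool. The part of other cell types in the results was not tested. One group stood apart: among the genes at 10 CPM or more in all other 9 pools, 3.51% and 10.19% were at 3 counts or fewer in the first and the second capsaicin-selected nodose pool, against 0 to 1.05% in the other pools. In bulk pools, fewer cells that use a gene and less RNA per cell cannot be told apart.

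The calcium-activated channel Ano1 was not counted at all, with 0 of the 1040272146 counts of the 10 pools together. At 3 counts this allows up to 0.0202 CPM in each pool of the Trpv1-tdTomato selection and up to 0.17 CPM in each pool of the capsaicin selection. In the annotation used here (GENCODE vM21, GRCm38), Ano1 lies at chr7:144588549-144751974 on the minus strand, with 6.244 kb of exons of which none overlaps another gene. A count of 0 in every pool was common, since 8173 genes (33.5%) had none.

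Its closest relative Ano2 was present in 1 pool only. The first tdTomato-negative pool held 5150 counts (32.6 CPM), and the second, from the same kind of cells, held 0. The tdTomato-positive nodose pools held 0 and 2 counts, the tdTomato-positive jugular pools 2 and 1, and all 4 capsaicin-selected pools 0. The pools labelled Trpv1-positive or chosen by capsaicin were thus all at or under 3 counts for both Ano1 and Ano2.

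Ano3, Ano6 and Ano10 were the anoctamins found in most pools. Ano3, which is known as a regulator of potassium channels in sensory neurons, was the only one of the 9 genes above 3 counts in all 10 pools. Its level was 13.6 and 155 CPM in the tdTomato-positive nodose pools, 54.5 and 63.7 CPM in the tdTomato-positive jugular pools, and 162 and 26.3 CPM in the tdTomato-negative pools. Nodose pools of the capsaicin selection were at 21.8 and 0.13 CPM (488 and 4 counts), and the jugular pools reached 330 and 378 CPM. The 3 groups of the Trpv1-tdTomato selection overlapped, whereas the capsaicin-selected jugular pools lay above all 8 others.

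The scramblase gene Ano6 was at 133 and 68.9 CPM in the tdTomato-positive nodose pools, 168 and 14.7 CPM in their jugular counterparts and 124 and 53.7 CPM in the tdTomato-negative pools. In the capsaicin selection a nodose pool had 130 CPM and the other 0.032 CPM, a single count, while jugular pools were at 48.7 and 22 CPM. Of the 10 pools 9 held Ano6, and no pair of groups compared here was separated.

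Ano10, whose loss in people is known to cause a cerebellar ataxia, was at 11.4 and 91.2 CPM in the tdTomato-positive nodose pools, at 48 and 18.7 CPM in those of the jugular end and at 28.7 and 83.7 CPM in the tdTomato-negative pools. The capsaicin-selected nodose pools were at 0.089 CPM (2 counts) and 63 CPM, and the jugular pools at 4.37 and 44 CPM. Ano6 and Ano10 were thus each near 0 in a different one of the capsaicin-selected nodose pools, and Ano3 had 4 counts in the pool in which Ano6 had 1. In that group 45.2% of the genes at 10 CPM in 1 pool were under 1 CPM in the other, and 3 of 3 chloride genes were. The same share was 16.4% to 28.4% in the other groups, where it held for 1 chloride gene, Ano2.

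**Figure D1:**
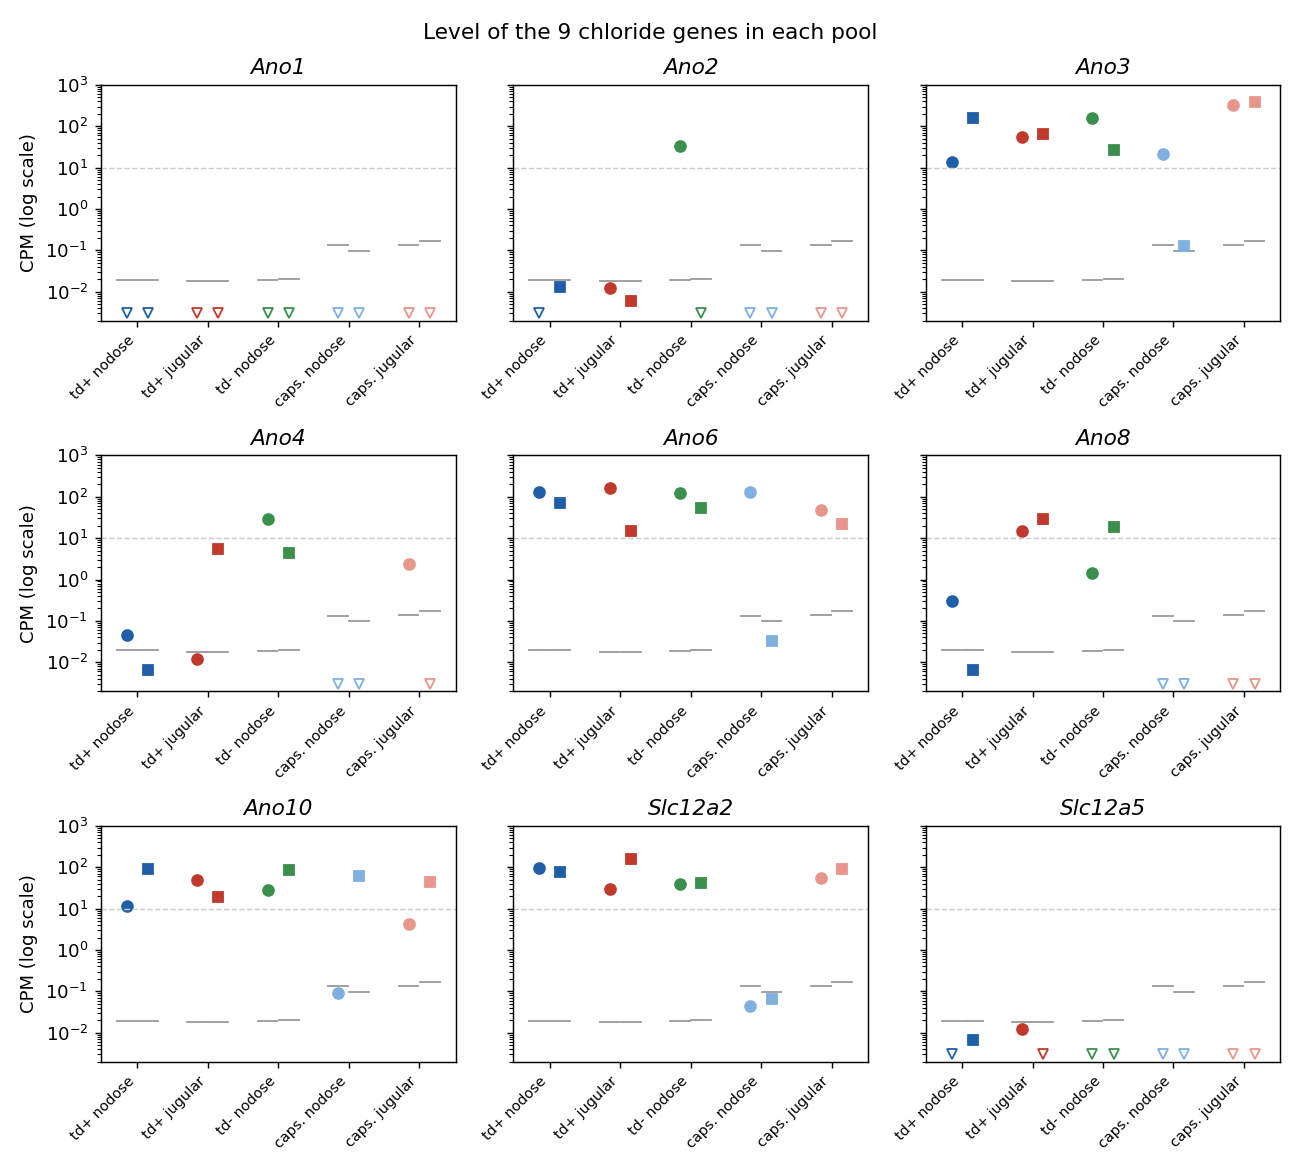
Level of each of the 9 genes in every pool, in CPM on a log scale, by group (td+ and td-, tdTomato-positive and tdTomato-negative; caps., capsaicin-selected). Circles are replicate 1 and squares replicate 2, open triangles at the foot are pools with 0 counts, short grey lines mark the CPM of 3 counts in each pool and the dashed line 10 CPM. Ano1 and Slc12a5 stay under the grey lines in all 10 pools, Ano2 exceeds them in 1 pool, and Slc12a2 lies between 29.4 and 160 CPM in 8 pools and under the lines in both capsaicin-selected nodose pools.

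Ano4 and Ano8 were lower and patchy. Ano4 had its highest group mean in the tdTomato-negative pools (4579 and 649 counts, 29 and 4.37 CPM), of which the second lay below 1 tdTomato-positive jugular pool, and was at 7 and 1 counts in the tdTomato-positive nodose pools. In the jugular groups it was above 3 counts in 1 pool each, with 930 counts (5.55 CPM) against 2 counts in the tdTomato-positive pools and 53 counts (2.39 CPM) against 0 in the capsaicin-selected pools. Both capsaicin-selected nodose pools were at 0.

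Ano8, whose product sits at contacts between the endoplasmic reticulum and the cell membrane, was at 14.6 and 29.5 CPM (2409 and 4944 counts) in the tdTomato-positive jugular pools. The tdTomato-positive nodose pools held 48 and 1 counts, and the tdTomato-negative pools 1.41 and 19.1 CPM. All 4 capsaicin-selected pools were at 0 counts of Ano8, which allows up to 0.17 CPM in each. So the jugular level of this gene in the Trpv1-tdTomato selection had no counterpart in the jugular pools of the capsaicin selection.

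The chloride loader Slc12a2 was at 95.3 and 77 CPM in the tdTomato-positive nodose pools, 29.4 and 160 CPM in jugular pools of that selection, and 40.4 and 42.6 CPM in the tdTomato-negative pools. The capsaicin-selected jugular pools were at 56.6 and 88.9 CPM. The capsaicin-selected nodose pools held 1 and 2 counts. The gene was thus present in 8 of 10 pools and at or under 3 counts in exactly 1 group.

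Between those 2 groups of the capsaicin selection the summed counts were 2827 of 39839921 in the jugular pools and 3 of 53222240 in the nodose pools. Each nodose pool was under the limit of 3 counts, so the ratio is known only within a wide interval. The jugular level was 1260 times the nodose level, with a 95% interval of 430 to 6110 times (exact binomial, given the summed counts). The tdTomato-positive nodose pools were at 1530 times the level of the capsaicin-selected nodose pools (523 to 7410 times). These intervals cover counting error only, and amplified reads are not independent molecules. Among the 2655 genes at 10 CPM or more in each of the 8 other pools, Slc12a2 was 1 of 70 (2.64%) at 3 counts or fewer in both capsaicin-selected nodose pools. For each of the other 4 groups the corresponding share was 0 to 0.352%.

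The chloride extruder Slc12a5 had 3 counts in all 10 pools together, 1 in a tdTomato-positive nodose pool and 2 in a tdTomato-positive jugular pool, and its highest level was 0.012 CPM. Since longer genes collect more counts, the cotransporters were compared per kb of exon (10.92 kb for Slc12a2 and 7.447 kb for Slc12a5). Per kb, Slc12a2 was at least 3350-fold higher than Slc12a5 in the first tdTomato-positive nodose pool and at least 6090-fold higher in the second jugular pool of that selection, setting the 0 counts of Slc12a5 at 3 counts in each pool. In the pools that held 1 and 2 counts of Slc12a5 the ratio per kb was 8070 (95% interval 1450 to 319000, second tdTomato-positive nodose pool) and 1650 (457 to 13700, first jugular pool of that selection), by exact binomial intervals for counting error only. The bound was at least 1450-fold and 1440-fold in the tdTomato-negative pools and at least 286-fold and 357-fold in the capsaicin-selected jugular pools. In the capsaicin-selected nodose pools both genes were at or under 3 counts, so no ratio is given.

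On the same scale of CPM per kb, no single order of the genes held in all groups. In the tdTomato-positive nodose pools the order by mean was Ano3 (11.6 CPM per kb), Ano10 (8.67), Ano6 (8.23) and Slc12a2 (7.89), and each neighbour in that order overlapped the next. The next gene, Ano8, lay lower without overlap at 0.023 CPM per kb. In the jugular pools of the same selection the order was Slc12a2 (8.66), Ano3 (8.19), Ano6 (7.43), Ano10 (5.65) and Ano8 (3.22), each overlapping the next, and Ano8 was above Ano4 (0.38) without overlap. In the capsaicin-selected jugular pools Ano3 stood at 45.7 and 52.3 CPM per kb, above the 5.19 and 8.14 of Slc12a2, the next gene. In the tdTomato-negative pools Ano3 (13), Ano10 (9.51) and Ano6 (7.22) overlapped in turn, and the lower Ano6 pool, at 4.38, was above both Slc12a2 pools, at 3.7 and 3.9. In the capsaicin-selected nodose pools Ano10, Ano6 and Ano3 overlapped in turn, and Slc12a2 was below Ano3 without overlap. The lower Ano3 pool held 4 counts and the Slc12a2 pools 1 and 2, so that gap lies at the limit of 3 counts.

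**Figure D2:**
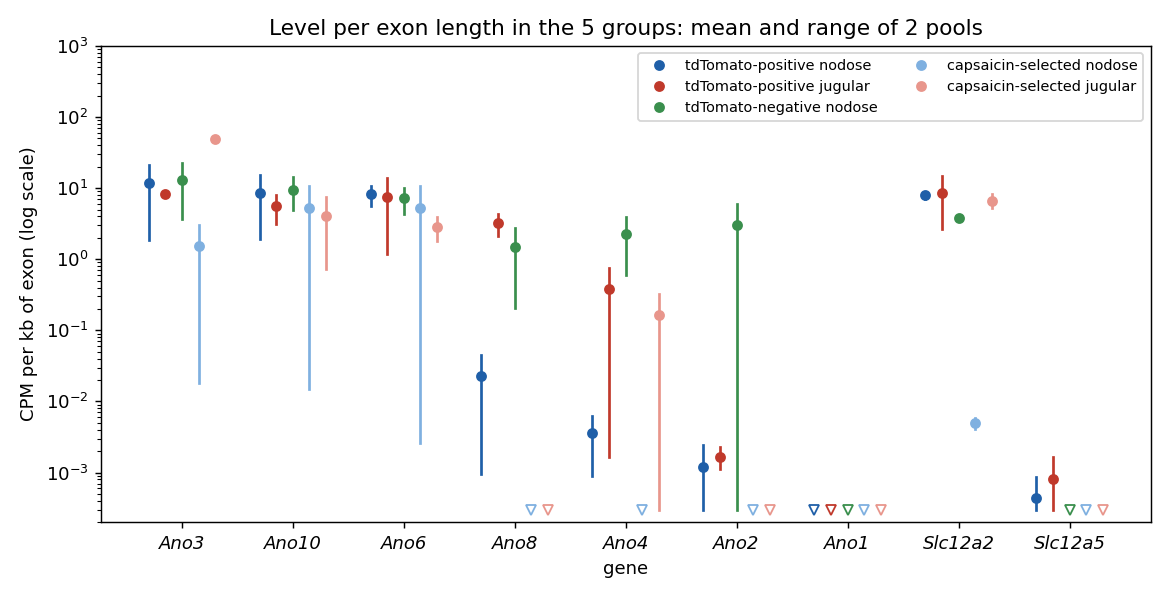
Level per kb of exon (log scale) of the 9 genes in the 5 groups. Points are means and lines the range of 2 pools, lines that reach the lower edge at 0.0003 include a pool at 0, and open triangles are groups with 0 counts in both pools. Ano3 in the capsaicin-selected jugular pools has the highest mean, 49 CPM per kb.

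Differences between groups were tested with edgeR's quasi-likelihood test over all genes that passed its filter on low counts, and a gene was called at an adjusted p (Benjamini-Hochberg) of at most 0.1, a fold of at least 2 and at least 10 CPM in both pools of a group. An exact two-sided permutation test of one gene has 0.33 as its smallest possible p with 2 pools on each side, and was not used. Log2 fold changes are fitted differences, first group over second, given ± SE.

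The first comparison asked how nodose and jugular neurons of the Trpv1 lineage differ. Of the 9 chloride genes 5 were tested and 0 were called, where 0.318% of all 10990 genes were called. Ano8 came nearest, with a fitted log2 fold change of -6.93 ± 3.01 (jugular higher, unadjusted p = 0.0677 and adjusted p = 0.482 in edgeR), and its 2 jugular pools lay above its 2 nodose pools, a separation shown by 24.4% of all genes tested. At an unadjusted p under 0.05 there were 0 of the chloride genes and 11.9% of all genes. DESeq2's Wald test called Ano8 (adjusted p = 0.00747), and over all alternatives in edgeR and DESeq2 its adjusted p was 0.00747 to 0.758. The other 4 differences were smaller than their own errors: 0.64 ± 1.25 for Ano3, 0.29 ± 1.22 for Ano6, 0.74 ± 1.47 for Ano10 and 0.04 ± 0.96 for Slc12a2. The median log2 fold change of the 5 genes was 0.29, beside 0.03 over all genes tested. The SE was 0.96 or more for each of the 5, so a 2-fold difference in either direction was not detectable at this spread.

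The second comparison put the same question to neurons chosen by their capsaicin response. Of the 9 genes 4 were tested and 0 were called, as was 0% of all 8181 genes in edgeR. At an unadjusted p under 0.05 and higher in the jugular pools there were 1 of the 4, Slc12a2, and 11.5% of all genes. Slc12a2 differed by -9.82 ± 2.75 on the log2 scale (jugular higher, unadjusted p = 0.0146, adjusted p = 0.352 in edgeR). DESeq2 called it (adjusted p = 0.00127), as did edgeR with all 10 pools in 1 fit (adjusted p = 0.0769), and the adjusted p ran from 0.00127 to 1 over the alternatives. Ano3 differed by -4.97 ± 2.09 (jugular higher, unadjusted p = 0.0604, adjusted p = 0.378). It was called without the first capsaicin-selected nodose pool, where the log2 fold change was -10.71 (adjusted p = 0.0905), and without the filter on low counts (adjusted p = 0.0921), and over all alternatives its adjusted p in edgeR and DESeq2 was 0.0905 to 1. Both genes had higher values in each jugular pool than in either nodose pool, as did 29.4% of all genes tested. Ano6 (0.89 ± 2.78) and Ano10 (1.08 ± 2.96) differed by less than their errors, and their sign turned when 1 nodose pool was left out (to -9.29 without the first for Ano6 and to -7.88 without the second for Ano10). The median of the 4 genes was -2.04, beside -0.02 over all genes tested.

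The third comparison asked what distinguishes tdTomato-positive from tdTomato-negative nodose neurons, and used the positive nodose pools of the first comparison again. Of the 9 genes 6 were tested and 0 were called, beside 0.0527% of all 11386 genes. Ano4 was lower in the positive pools by a fitted -8.93 ± 3.07 (unadjusted p = 0.0323, adjusted p = 0.385 in edgeR), and 6.57% of all genes had an unadjusted p under 0.05 in that direction. Neither group held Ano4 at 10 CPM in both pools, so it could not be called, although DESeq2 gave it an adjusted p of 8.12e-05. Ano8 was likewise lower in the positive pools (-5.6 ± 3.11, adjusted p = 0.661). Slc12a2 was higher in the positive pools, with 95.3 and 77 CPM against 40.4 and 42.6 CPM (86.2 ± 12.9 against 41.5 ± 1.59, SD, n = 2). Its fitted difference was 1.42 ± 0.82 (unadjusted p = 0.142, adjusted p = 0.68), and was 1.24 to 1.61 when each pool in turn was left out. These 3 genes were separated between the groups, 1 higher in the positive and 2 in the negative pools, where 13.4% and 28.4% of all genes were. Ano3 (0.16 ± 1.4), Ano6 (0.55 ± 0.78) and Ano10 (0.22 ± 1.34) differed by less than their errors. The median of the 6 genes was 0.19, beside 0.01 over all genes tested.

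**Figure D3:**
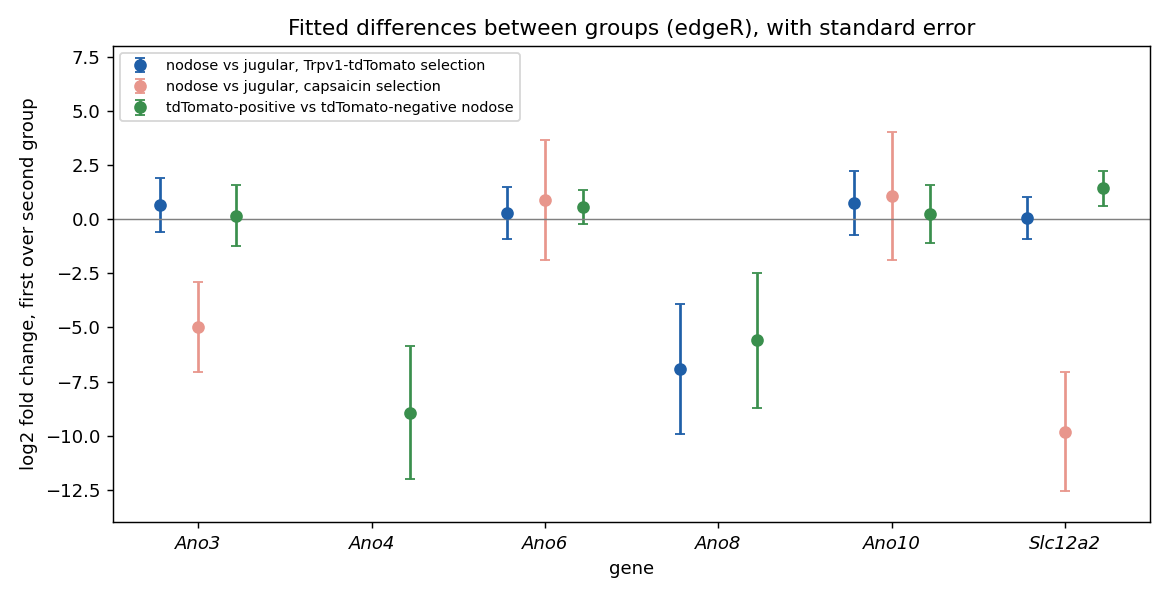
Fitted log2 fold changes of the 6 genes tested in at least 1 of the 3 comparisons (edgeR), first group over second, with bars of ± 1 SE. None was called. The points farthest from 0 are Slc12a2 in the capsaicin selection (-9.82), Ano4 between positive and negative nodose pools (-8.93) and Ano8 in the Trpv1-tdTomato selection (-6.93), and the bars of Ano6 and Ano10 cross 0 in all 3 comparisons.

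Over both selections together, with the selection as a covariate, 6 of the 9 genes were tested and 0 called, beside 0.577% of all 11959 genes. Ano4 (-7.19 ± 2.85, adjusted p = 0.385 in edgeR), Ano8 (-6.3 ± 3.88, adjusted p = 0.727), Slc12a2 (-4.63 ± 3.43, adjusted p = 0.811) and Ano3 (-2.13 ± 2.04, adjusted p = 0.898) were lower in the nodose pools by the fit, Ano4 being the 1 gene with an unadjusted p under 0.05 (0.0295, beside 7.02% of all genes in that direction), and Ano6 (0.6 ± 1.5) and Ano10 (0.94 ± 1.7) higher. No gene of the 9 had its nodose pools on the same side of its jugular pools, without overlap, within each selection. Of all genes tested 10.1% did. Slc12a2 was called by DESeq2 (adjusted p = 0.0366) and in the edgeR fit of all 10 pools (adjusted p = 0.0956).

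The difference between the selections was tested directly as the interaction of ganglion and selection, in which 0 of 9 chloride genes and 0% of all 11959 genes were called by edgeR. At an unadjusted p under 0.05, with the larger value in the Trpv1-tdTomato selection, there were 7.82% of all genes and 2 chloride genes. For Slc12a2 the nodose-to-jugular log2 difference was 10.06 ± 2.39 larger in the Trpv1-tdTomato than in the capsaicin selection (unadjusted p = 0.00207, adjusted p = 0.478), and 9.3 to 11.6 larger when each pool was left out in turn. DESeq2 called this interaction (adjusted p = 2.05e-05), and over all alternatives the adjusted p in edgeR and DESeq2 was 2.05e-05 to 1. For Ano3 it was 5.65 ± 2.5 larger (unadjusted p = 0.0492, adjusted p = 0.483), and it was called without the first capsaicin-selected nodose pool (11.41, adjusted p = 0.0798).

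Slc12a4 and Slc12a7, which encode the potassium-chloride extruders KCC1 and KCC4, were followed beside Slc12a5. They were at most at 0.043 and 0.156 CPM in the 8 tdTomato-positive and capsaicin-selected pools. In the tdTomato-negative pools they reached 1.03 and 0.222 CPM and 19.1 and 3.88 CPM.

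The cotransporters are switched by phosphorylation: WNK kinases act on SPAK (Stk39) and OSR1 (Oxsr1), which bind MO25 (Cab39 and Cab39l), and these activate NKCC1 and inhibit the KCCs. Of the 9 regulators in the list, 6 to 9 were tested in a comparison and 0 were called in any of the 5, beside 0 to 0.577% of all genes. Wnk1 was at 9.82 to 164 CPM and Stk39 at 39.7 to 394 CPM in 9 pools. Both were under 0.1 CPM in the second capsaicin-selected nodose pool, where Oxsr1 was at 0.13 and Cab39l at 0.227 CPM. Cab39 was at 46.2 CPM in that pool. Oxsr1 was at 0 in the first capsaicin-selected jugular pool, where Slc12a2 was at 56.6 CPM. In the first capsaicin-selected nodose pool, which also held 1 count of Slc12a2, Wnk1 was at 31.3, Stk39 at 208 and Oxsr1 at 27.3 CPM. Whether the kinases had a part in the level of Slc12a2 was not tested. Ckb, a brain creatine kinase that binds KCC2, was at 102 to 1684 CPM.

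**Figure D4:**
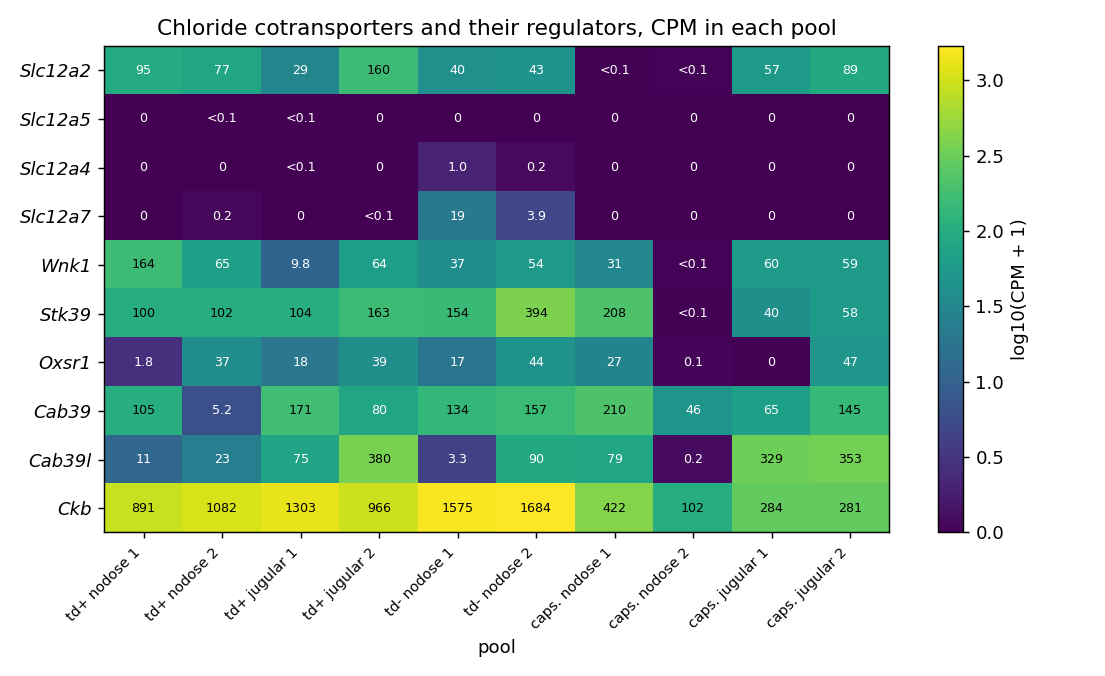
Level of 4 chloride cotransporter genes and 6 regulators in each pool. Cell colour is log10(CPM + 1), printed values are CPM, and <0.1 stands for a value above 0 and under 0.1 CPM. Slc12a2 is under 0.1 CPM in both capsaicin-selected nodose pools only, while Wnk1 and Stk39 are under 0.1 CPM in the second of them.

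Among other chloride channels and transporters, 37 of 39 listed genes were in the tables. Only 12 to 20 of the 37 passed the filter and were tested, depending on the comparison, and 0 were called in any of the 5 tests, where 0 to 0.577% of all genes were called, so the list is too small for its count to be read against that share. Of all 37, 8 were at or under 3 counts in every pool, beside 36.9% of all genes in the tables. Above 3 counts in all 10 pools were 4, beside 15.3% of all genes. The 3 genes with the highest mean CPM over the 10 pools are described. Lrrc8a, the obligatory subunit of the volume-regulated anion channel, was at 12.1 to 47.1 CPM in the 6 pools picked by tdTomato and 688 to 2457 CPM in the 4 pools picked by capsaicin, without overlap, and its mean of 521 CPM rests on the latter, since its median was 46.3 CPM. Tmem206, a proton-activated chloride channel named here after its values were seen, had a higher median of 98.6 CPM, and was at 91.1 to 252 CPM in the 6 pools picked by tdTomato and at 1.65 to 58.5 CPM in the others. These values are not per length. Clcn3, an endosomal chloride/proton exchanger, was at 95.8 and 180 CPM in the tdTomato-positive nodose pools, against 26.1 and 25.1 CPM in their jugular counterparts (log2 fold change 2.58 ± 0.78, unadjusted p = 0.0197, adjusted p = 0.321 in edgeR). Clcn3 in capsaicin-selected pools was at 222 and 167 CPM (nodose) and 193 and 216 CPM (jugular). Clcn4-2 was at 10.3 to 317 CPM.

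Receptors and enzymes that raise intracellular calcium stand upstream of ANO1 and ANO2. Of the 10 genes in that list, 4 to 6 were tested in a comparison and 1, Trpv1, was called. Trpv1 is the gene that the selection was built on, so its call follows from how the cells were picked. It was called between tdTomato-positive nodose (254 and 156 CPM) and tdTomato-negative nodose pools (0.057 and 0.054 CPM). In that comparison 0.0527% of all 11386 genes were called. The tdTomato-positive jugular pools were lower than their nodose counterparts, at 25.2 and 38.1 CPM of Trpv1 (log2 fold change 2.86 ± 0.64, adjusted p = 0.321 in edgeR). The bradykinin receptor gene Bdkrb2 and the phospholipase gene Plcb2 were at 0 in all 10 pools, and Plcb3, another phospholipase gene, was at 31.3 to 344 CPM.

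As a description over the 10 pools and 8066 genes compared, the genes whose log2(CPM + 1) followed a member most closely were Osbpl8 (Pearson r = 0.975), Stx2 (0.97) and Lysmd4 (0.968) for Slc12a2. They were Larp4b (0.929), Phactr1 (0.912) and Sec24c (0.911) for Ano3, Ankfy1 (0.948), Atpaf2 (0.942) and Abcf1 (0.936) for Ano6, and Cenpb (0.93) and Ccng1 (0.919) for Ano10. For Ano8 they were Trim13 (0.994), Pde7a (0.986) and Slc4a7 (0.982). The pools within a selection share core, strain and depth, and each r is among the 3 highest of those compared.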

How the data were processed

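The deposited values were raw counts, 1 table per pool and 1 row per gene symbol, which the authors made from SMARTer-amplified cDNA by alignment to mm10 with TopHat2 2.0.9 and Bowtie2 2.1.0.0 and counting with HTSeq; the annotation and strand setting are not given in the sources used here. Amplification from 14 to 30 cells can lose a transcript from a whole pool. Counts were tested with edgeR 4.0.16 (R 4.3.3) after filterByExpr and TMM, with Benjamini-Hochberg adjustment over all genes tested, and DESeq2 1.42.0 was an alternative; the 10 CPM criterion used size-factor CPM of the pools compared. The scripts were tested on simulated data. Printed CPM are counts over the pool's total of 17666710 to 167704327, and SE is the log2 fold change over the square root of F. Positions and exon lengths are from GENCODE vM21 (GRCm38). Intervals and floors cover counting error only. The members and gene lists were chosen with earlier results of these data known. All 9 members were named throughout; of the other chloride genes the 3 highest by mean CPM were, and the further cotransporters, regulators and calcium genes were named after their values were seen. Counts of the 2 pools of a group differed by far more than sampling noise in every group, so each pool was counted as 1 sample.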

Additional observations from a re-analysis of the deposited data

How the results depend on the processing

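The 27 fitted log2 differences of chloride genes over the 5 tests kept their direction under DESeq2 size factors, without the filter on low counts, under DESeq2, with all 10 pools in 1 fit, without Rn45s and at an adjusted p of at most 0.05. Chloride genes called, 0 in each test as reported, became 1 under DESeq2 in the Trpv1-tdTomato selection (Ano8), the capsaicin selection, both selections and the interaction (Slc12a2 in each), 1 with all 10 pools in 1 fit in the capsaicin selection and in both selections (Slc12a2), and 1 without the filter in the capsaicin selection (Ano3). They ranged from 0 to 1 in the capsaicin selection and the interaction when each pool was left out (Ano3 without the first capsaicin-selected nodose pool), and stayed at 0 in the other 3 tests. Over all genes the reported counts of 35, 0, 6, 69 and 0 became 510, 707, 390, 1122 and 1071 under DESeq2 (in the order of the report), 59, 122, 10, 222 and 95 without the filter and 26, 110, 7, 213 and 7 with all 10 pools in 1 fit. When each pool was left out, a lone pool being taken to vary like the other groups, they ranged from 0 to 0, 0 to 29, 0 to 0, 38 to 89 and 0 to 195. In both selections the counts of 38 and 44 came without the second and the first capsaicin-selected jugular pool, and in the interaction the 195 came without the first capsaicin-selected nodose pool, the next highest count being 15.

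With the replicate number as a block (replicate block), the counts over all genes were 13, 20, 1, 41 and 0, and 8 differences turned: Ano3 to -0.21 in the Trpv1-tdTomato selection and -0.15 between positive and negative pools, Ano6 to -3.35 in the capsaicin selection and 4.43 in the interaction, and Ano10 to -2.07 in the capsaicin selection, -0.25 between positive and negative pools, -0.57 in both selections and 2.37 in the interaction. Deviations of same-numbered pools from their group means correlated at 0.0039, -0.0074 and -0.0076 across genes, so no pairing by number was seen. Pools of a group differed so widely that the effect of a shared mouse could go unseen. Whether the numbers pair the pools is therefore not settled.

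Leaving out each pool turned the sign of differences whose size was under their error. In the Trpv1-tdTomato selection the range was -1.95 to 1.51 for Ano3, -0.61 to 2.95 for Ano6, -1.39 to 1.61 for Ano10 and -0.72 to 1.66 for Slc12a2. In the capsaicin selection it was -9.29 to 1.89 for Ano6 and -7.88 to 3.43 for Ano10. Between positive and negative pools it was -2.41 to 2.05 for Ano3, -0.030 to 1.3 for Ano6 and -1.89 to 1.15 for Ano10. In both selections it was -1.25 to 1.69 for Ano6 and -0.81 to 1.66 for Ano10, and in the interaction -6.49 to 10.63 for Ano4, -1.64 to 9.74 for Ano6 and -2.69 to 8.7 for Ano10. The cause of these changes was not tested. With 2 pools a group and SEs of 0.78 to 5.22, leaving aside the interaction of Ano8, which could not be fitted with all its capsaicin-selected pools at 0, a difference that was not called is not shown to be absent.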
